A study of Homo sapiens with 6 samples.

Results

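The 34 genes described here act in DNA end joining, in the choice of repair pathway at broken ends and in the checkpoint that follows DNA damage. They were chosen by symbol, and all 34 were found among the 23024 genes of the deposited table. RNA-seq had been done on 5637 cells, an established human bladder carcinoma line, after lowering RAD51C, which acts in repair by homologous recombination. One group is 3 libraries titled NC with the genotype WT. The other is 3 libraries titled sh-RAD51C with the genotype RAD51C knockdown, and RNA of both groups came from transfected cells. Neither the meaning of NC, the hairpin, the time of RNA collection nor the origin of replicates (separate cultures or not) is stated in the labels. The p-values therefore set the difference between groups only against the scatter of these libraries, and that scatter may be technical.

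Broken DNA ends can be rejoined directly, by a machinery built on the Ku proteins, or copied from a sister chromatid by homologous recombination, the pathway in which RAD51C works. TP53BP1 and the shieldin complex protect ends from resection and so favour joining. The kinases ATM and ATR sense breaks and stalled replication forks, and act through CHEK1, CHEK2 and WEE1 to hold the cell cycle while repair proceeds.

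Values are FPKM, the reads or fragments of a gene scaled to its length and to the library's total. Inferred totals were 36068282 to 37560184 reads in NC and 37104318 to 38079825 reads in sh-RAD51C. RAD51C held 14.7, 13.2 and 13.6 FPKM in NC 1, 2 and 3 and 3.51, 3.09 and 2.95 FPKM in sh-RAD51C 1, 2 and 3. It averaged 23% of the NC mean in the knockdown (log2 fold change -1.83 with an SE of 0.064, limma adjusted p = 7.16e-09 by Benjamini and Hochberg's method). The exact permutation test (two-sided) reached p = 0.1, its minimum with 3 libraries against 3. In bulk RNA, fewer cells carrying a transcript and less of it in each cell cannot be told apart. All 10 epithelial and urothelial markers were expressed and all differed between groups, 6 higher (EPCAM from 76.5 to 109 FPKM, KRT7 from 407 to 685) and 4 lower (KRT5 from 686 to 301 FPKM, TP63 from 28.8 to 17.8). None of 6 endothelial markers averaged 1 FPKM. Of 7 listed fibroblast markers 4 were under 0.1 FPKM, but FBLN1 (55.9 to 44.4 FPKM) and COL1A1 (9.94 to 6.83) were expressed and fell. Among 4 listed blood cell markers PTPRC was near 0, while CD14 fell from 1.57 to 0.573 FPKM and CD68 rose from 1.72 to 2.24 FPKM. The part of these differences in the members' values was not tested.

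Most of the end joining and checkpoint genes differed little between the groups, and the largest rise was 1.3-fold. Of the 31 genes that averaged 1 FPKM or more and were tested, 7 were higher in sh-RAD51C (POLM, SHLD2, HUS1, RAD1, CHEK1, CLSPN and TIPIN). A further 4 were lower (TP53BP1, RAD9A, CHEK2 and TIMELESS) and 20 were not called. The 11 called members are 35.5% of those tested, while 49.4% of all 11152 genes tested were called. By direction, 22.6% of members were higher against 23.2% of all genes, and 12.9% were lower against 26.2%. The groups did not overlap in 13 members (41.9%, against 58.4% of all genes). Changes on the log2(FPKM + 1) scale ran from -0.25 to 0.31 with a median of 0.04, against a median of -0.01 over all genes. The median size of a change regardless of sign was 0.11 for the members and 0.15 for all genes.

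Of the 11 calls, those of POLM, HUS1, CLSPN, TIMELESS and TP53BP1 stood in every alternative in which the gene could be tested, 16 for HUS1 and 17 for the others, and at a threshold of 0.01. Without NC replicate 2 the counts were 4 higher and 2 lower, while calls over all genes went from 5511 to 4522. Without NC replicate 3 they were 7 higher and 2 lower, with 4894 genes called in all. Without sh-RAD51C replicate 1, which stood apart in ways described below, 9 members were higher and 3 lower, with 5464 genes called in all.

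**Figure D1:**
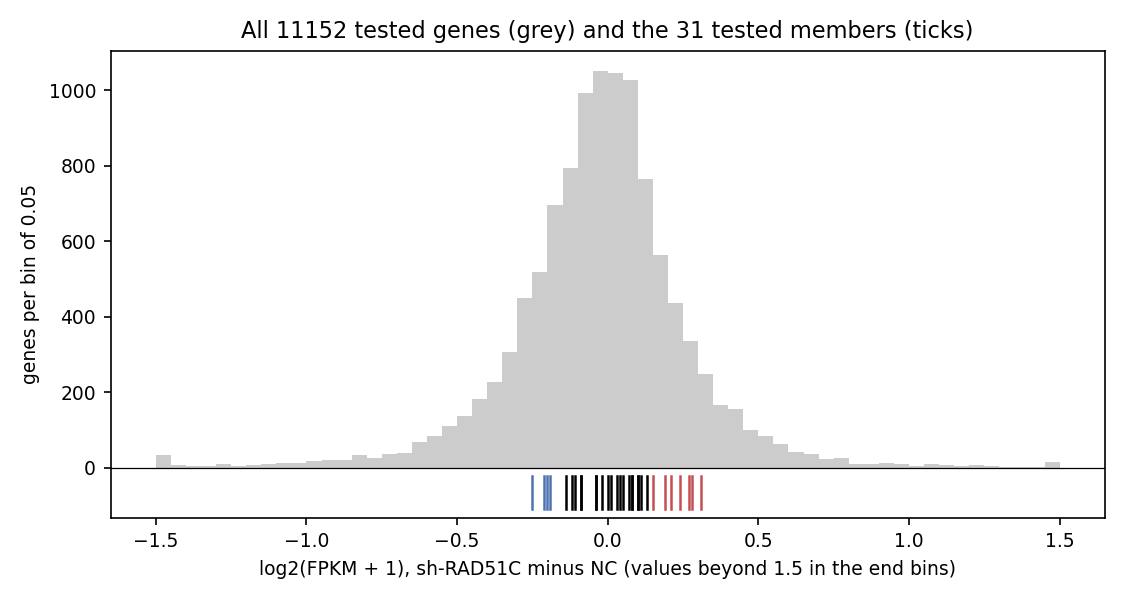
Histogram of the change between groups (sh-RAD51C minus NC, log2(FPKM + 1)) over all 11152 tested genes, with 1 tick for each of the 31 tested members (red higher, blue lower, black not called). All ticks lie between -0.25 and 0.31, near the centre of the distribution.

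The core joining machinery was expressed over a wide range of levels and moved little. XRCC5 and XRCC6, which encode the Ku heterodimer that binds broken ends, averaged 151 and 227 FPKM over the 6 libraries. PRKDC, the catalytic subunit of the DNA-dependent protein kinase that Ku recruits, averaged 87.3 FPKM. The ligase LIG4 and its partner XRCC4 were far lower at 6.03 and 2.35 FPKM, and the accessory factor NHEJ1 lower still at 1.53 FPKM. PAXX, another small Ku-binding factor, averaged 51.4 FPKM.

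Of these 10 genes, 1 was called higher and 0 lower (10% called, against 49.4% of all genes). XRCC5 was at 152, 155 and 153 FPKM in NC and 150, 147 and 152 FPKM in sh-RAD51C. The groups lay just apart, but the log2 fold change of -0.04 (95% interval -0.11 to 0.03) did not pass the test (limma adjusted p = 0.345). XRCC6 was at 222, 224 and 227 FPKM in NC and 237, 228 and 225 FPKM in sh-RAD51C, with overlapping groups and a log2 fold change of 0.04 (interval -0.04 to 0.11, limma adjusted p = 0.414). For the other 7 uncalled genes, LIG4, XRCC4, NHEJ1, PAXX, the nuclease DCLRE1C, the polymerase POLL and PRKDC, log2 fold changes ran from -0.11 for DCLRE1C to 0.11 for XRCC4. Their 95% intervals on the log2(FPKM + 1) scale lay between -0.26 and 0.25, so changes beyond these bounds on that scale lie outside every interval. This scale understates changes of low genes such as DCLRE1C and XRCC4, whose folds of means were 0.893 and 1.11. With 0.1 added to FPKM in place of 1, their log2 fold changes were -0.15 and 0.15. XRCC4 and NHEJ1 were called higher with quantile normalization (limma adjusted p = 0.0353 and 0.0433), and PAXX without length and GC trends (0.015). In GENCODE release 29, AC068946.1 overlaps 65.4% of the exon bases of NHEJ1 on the same strand.

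POLM was the exception. It encodes polymerase mu, which fills gaps at ends held together for joining, and lies on chromosome 7 from 44072247 to 44082540 on the minus strand. Its level was 5.24, 5.3 and 5.31 FPKM in NC 1, 2 and 3, against 6.56, 6.65 and 6.7 FPKM in sh-RAD51C 1, 2 and 3. Every sh-RAD51C library was above every NC library, and the spread within each group was small (SD 0.0393 and 0.0716, n = 3). The fold of means was 1.26 and the log2 fold change 0.28 (SE 0.049, adjusted p by limma = 0.000715). The related polymerase POLL, by contrast, was at 3.72 ± 0.376 and 3.77 ± 0.3 FPKM (SD, n = 3) in NC and sh-RAD51C.

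POLQ, the polymerase of the alternative, microhomology-mediated joining route, was at 4.84, 4.76 and 5.18 FPKM in NC and 4.95, 5.78 and 5.76 FPKM in sh-RAD51C. The groups overlapped through sh-RAD51C 1, and its log2 fold change of 0.13 was not called (limma adjusted p = 0.122). Without sh-RAD51C replicate 1 it was 0.19 and passed (limma adjusted p = 0.0192).

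**Figure D2:**
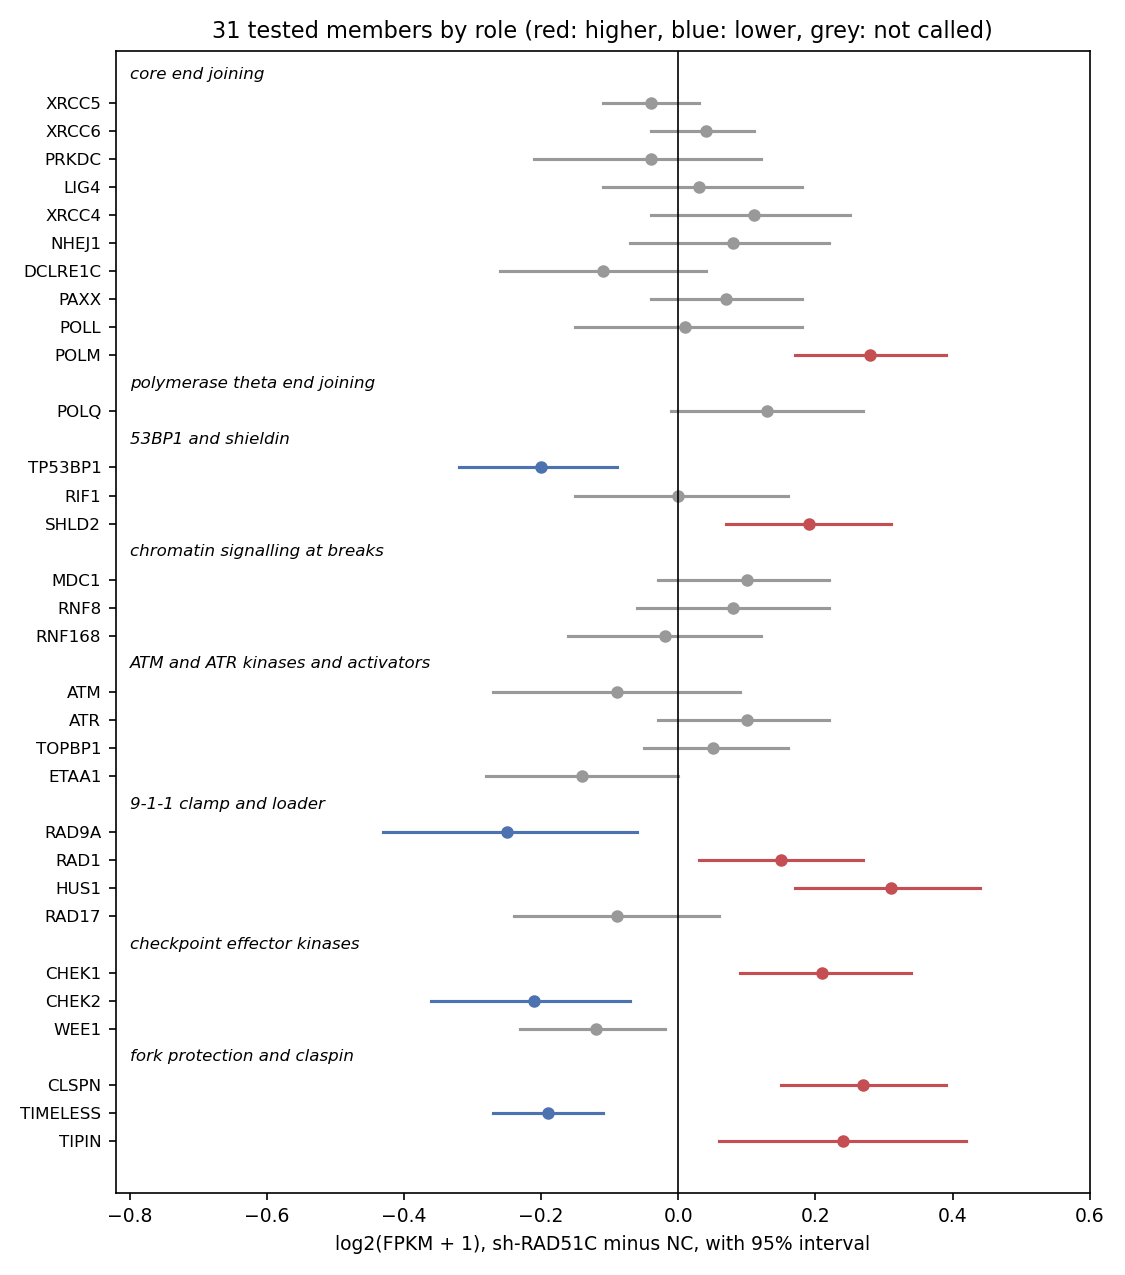
Change of each of the 31 tested members (sh-RAD51C minus NC, log2(FPKM + 1)), as a point with its 95% interval, ordered by role, red for higher, blue for lower and grey for not called. Among the 10 core joining genes only POLM is off 0, whereas the clamp, the effector kinases and the fork genes hold members on both sides.

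Among the genes that protect ends from resection, TP53BP1 fell and SHLD2 rose. TP53BP1 encodes the chromatin reader that recruits RIF1 and shieldin, and lies on chromosome 15 from 43403061 to 43510728 on the minus strand. It was at 11.5, 12.1 and 11.5 FPKM in NC and 9.29, 10.4 and 10.4 FPKM in sh-RAD51C. All 3 knockdown libraries were below the NC libraries, sh-RAD51C 1 the most, with a fold of means of 0.857 and a log2 fold change of -0.2 (SE 0.053, adjusted p by limma = 0.00795). Exon overlaps here are from GENCODE release 29, whose exon lengths differ from those inferred from the FPKM values (for TIPIN 2755 against 4158 bases), so they may not match the gene models the authors counted on. Strand use is not stated either, and 28.7% of its annotated exon bases overlap TUBGCP4 on the opposite strand. TUBGCP4 itself was at 11.7 ± 0.228 and 12.6 ± 0.66 FPKM and was not called (log2 fold change 0.1, limma adjusted p = 0.104).

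SHLD2, the shieldin subunit that binds single-stranded DNA, was at 3.5, 3.55 and 3.68 FPKM in NC and 4.22, 4.18 and 4.21 FPKM in sh-RAD51C. The groups did not overlap, the fold of means was 1.18 and the log2 fold change 0.19 (SE 0.055, adjusted p by limma = 0.0154). It was called in 14 of 16 alternatives, the others being the omission of NC replicate 1 (0.0545) and of NC replicate 2 (0.0527). GLUD1, which overlaps 10.9% of its exon bases on the opposite strand, was level at 24.9 ± 0.881 and 25.1 ± 0.789 FPKM.

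SHLD1 and SHLD3, also shieldin subunits, were too low to be tested. SHLD3 held 0.72, 0.899 and 0.864 FPKM in NC and 1.02, 1.12 and 0.99 FPKM in sh-RAD51C, or 40 to 64 inferred reads per library. All 3 knockdown libraries were above the NC libraries, and where no filter was applied the gene was not called. SHLD1 held 0.649, 0.816 and 0.893 FPKM in NC and 0.766, 0.792 and 0.572 FPKM in sh-RAD51C, with overlapping groups. RIF1, the effector that links TP53BP1 to shieldin, had a mean of 12 FPKM in both groups, although sh-RAD51C 1 was at 10.4 and the other knockdown libraries at 12.6 and 13.1 FPKM.

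No gene of the chromatin signal at breaks was called. MDC1, the scaffold that binds phosphorylated histone H2AX, had a log2 fold change of 0.1 (limma adjusted p = 0.172). The ubiquitin ligases RNF8, which MDC1 brings to the break, and RNF168 stood at 0.08 and -0.02. MDC1 was called higher without length and GC trends (0.15, limma adjusted p = 0.0289).

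The apical kinases and their activators also gave no call among the 4 tested. ATR, the kinase of stalled forks, was at 6.52, 6.46 and 6.57 FPKM in NC and 6.48, 7.53 and 7.13 FPKM in sh-RAD51C. The overlap came from sh-RAD51C 1, and without that library ATR was called higher (log2 fold change 0.15, limma adjusted p = 0.0344, against 0.1 and 0.194 with all libraries). AC109992.1 overlaps 16.4% of the exon bases of ATR on the opposite strand. TOPBP1, which activates ATR, was the most abundant of this group at 26.8 FPKM and differed by 0.05 (limma adjusted p = 0.402). ETAA1, an activator that works through the single-strand binding protein RPA, was at 5.42 ± 0.208 and 4.82 ± 0.415 FPKM (SD, n = 3). Its log2 fold change of -0.14 did not pass (limma adjusted p = 0.0843), though it did without sh-RAD51C replicate 3 (0.0228) and without length and GC trends (0.0192). ATM, the kinase of double-strand breaks, was at 3.09 ± 0.0994 and 2.86 ± 0.442 FPKM and was not called. ATRIP, the binding partner of ATR, was listed at only 0.0494, 0.0263 and 0.0685 FPKM in NC and 0.0208, 0.0586 and 0.0677 FPKM in sh-RAD51C, 4 to 13 inferred reads. TREX1 shares 27.9% of its exon bases on the same strand, and how reads of the 2 genes were divided is not stated.

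The clamp of RAD9A, RAD1 and HUS1, which is loaded onto DNA at damage and brings TOPBP1 to ATR, held both rising and falling subunits. HUS1, on chromosome 7 from 47963288 to 47979553 (minus strand), was at 3.79, 3.48 and 3.45 FPKM in NC and 4.47, 4.58 and 4.91 FPKM in sh-RAD51C. It had the largest rise of the 31 tested members, with a fold of means of 1.3 and a log2 fold change of 0.31 (SE 0.06, adjusted p by limma = 0.00152), and no overlap between groups.

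RAD1 was at 7.39, 7.95 and 8.13 FPKM in NC and 8.33, 9.08 and 8.91 FPKM in sh-RAD51C, again without overlap. Its log2 fold change of 0.15 ± 0.054 (SE) passed narrowly (limma adjusted p = 0.0409) and was called in 11 of 17 alternatives. The calls ended without NC replicate 1 (0.16), NC replicate 2 (0.0777), sh-RAD51C replicate 2 (0.126) and sh-RAD51C replicate 3 (0.0996), without the filter on low values (0.0817) and with FPKM rescaled to a common sum (0.0605). The ribosome assembly gene BRIX1, which shares 7.1% of RAD1's exon bases on the opposite strand, rose from 38.8 ± 1.75 to 51.8 ± 2.55 FPKM. Its part in the value of RAD1 was not tested.

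RAD9A was at 6.77, 8.12 and 7.34 FPKM in NC and 5.25, 6.76 and 6.28 FPKM in sh-RAD51C. The highest knockdown library came just below the lowest NC library, and the log2 fold change was -0.25 (SE 0.084, adjusted p by limma = 0.0293). This was the largest fall among the members and also the least stable call, made in 10 of 17 alternatives. It was lost without NC replicate 2 (0.123), NC replicate 3 (0.0578), sh-RAD51C replicate 1 (0.0967) and sh-RAD51C replicate 3 (0.0507), and without the filter (0.137). Rescaling to a common sum (0.0523) and removal of length and GC trends (0.0794) ended it too. RAD17, which loads the clamp, was not called at 6.55 ± 0.494 and 6.09 ± 0.466 FPKM.

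The effector kinases parted in the same way. CHEK1, the kinase activated by ATR, rose and CHEK2, the kinase activated by ATM, fell. CHEK1, on chromosome 11 from 125625136 to 125676255, was at 9.15, 9.7 and 10.7 FPKM in NC and 11.4, 11.2 and 12.1 FPKM in sh-RAD51C. The groups did not overlap, with a fold of means of 1.17 and a log2 fold change of 0.21 (SE 0.058, adjusted p by limma = 0.0106). It missed the threshold where genes of low values were kept in the fit (0.0505).

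CHEK2, on chromosome 22 from 28687743 to 28742422, was at 3.9, 4.43 and 4.6 FPKM in NC and 3.43, 3.71 and 3.56 FPKM in sh-RAD51C. All 3 knockdown libraries were lower, with a fold of means of 0.829 and a log2 fold change of -0.21 (SE 0.066, adjusted p by limma = 0.0191). The call was lost in 4 of 16 alternatives, without NC replicate 2 (0.0707) or NC replicate 3 (0.0785), without the filter (0.0664) and with quantile normalization (0.0526). WEE1, the kinase that restrains CDK1, was at 17.4, 17 and 17.7 FPKM in NC and 14.9, 16.6 and 16.1 FPKM in sh-RAD51C. Its groups did not overlap, yet the log2 fold change of -0.12 just missed the test (limma adjusted p = 0.0524) and was called lower in 5 of 17 alternatives.

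All 3 genes that work at the replication fork were called, CLSPN and TIPIN higher and TIMELESS lower. Over all genes tested, 49.4% were called. CLSPN encodes claspin, the adaptor through which ATR reaches CHEK1. It was at 6.97, 6.99 and 7.05 FPKM in NC and 8.07, 8.91 and 9.04 FPKM in sh-RAD51C. The NC libraries were nearly identical and all below the knockdown libraries, of which sh-RAD51C 1 was the lowest, with a fold of means of 1.24 and a log2 fold change of 0.27 (SE 0.054, adjusted p by limma = 0.0015).

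TIMELESS and TIPIN encode the subunits of the heterodimer that protects stalled forks. TIMELESS was at 21.9, 21.9 and 22 FPKM in NC and 19, 18.8 and 19.5 FPKM in sh-RAD51C, a clear separation with a fold of means of 0.871 and a log2 fold change of -0.19 (SE 0.038, adjusted p by limma = 0.00155). TIPIN was at 4.61, 3.82 and 4.87 FPKM in NC and 4.84, 5.73 and 5.66 FPKM in sh-RAD51C. Its groups overlapped by NC 3 and sh-RAD51C 1, and its log2 fold change was 0.24 (SE 0.083, adjusted p by limma = 0.0315). That call was lost without NC replicate 2 (0.138), sh-RAD51C replicate 2 (0.102) or sh-RAD51C replicate 3 (0.102), and without the filter (0.136). RPL9P25, a ribosomal protein pseudogene on the same strand, overlaps 21% of its exon bases.

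**Figure D3:**
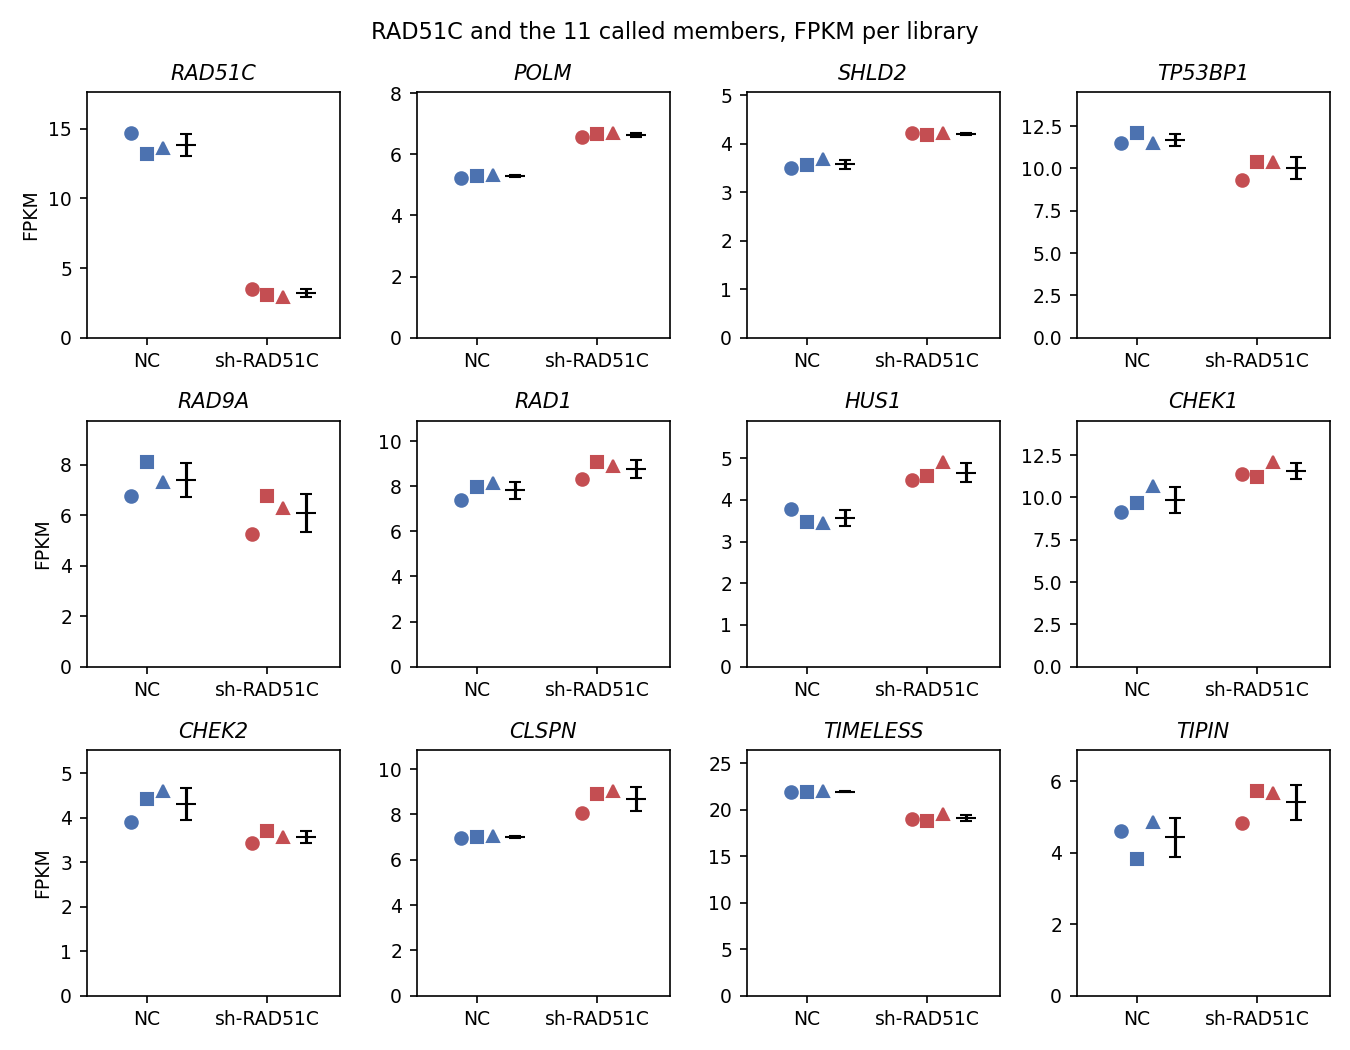
FPKM of RAD51C and of the 11 called members in each library, on axes from 0, with circles, squares and triangles for replicates 1, 2 and 3, and the mean with its SD in black. RAD51C drops to 23% of its NC mean, while the members shift by fractions of their level, and only TIPIN has overlapping groups.

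The promoters of the 3 fork genes are shown because these genes work together and yet moved apart. Each window runs from 250 bases before to 50 bases after a RefSeq start (GRCh38.p14), on the strand of the gene. E2F factors, which drive genes of the G1 to S transition, bind sites written here as TTTCCCGC, TTTGGCGC, TTTCGCGC or TTTGCCGC. Matches on either strand are in capitals, and in TIPIN a pair of them overlaps.
CLSPN, chr1:35769929-35770228, minus strand: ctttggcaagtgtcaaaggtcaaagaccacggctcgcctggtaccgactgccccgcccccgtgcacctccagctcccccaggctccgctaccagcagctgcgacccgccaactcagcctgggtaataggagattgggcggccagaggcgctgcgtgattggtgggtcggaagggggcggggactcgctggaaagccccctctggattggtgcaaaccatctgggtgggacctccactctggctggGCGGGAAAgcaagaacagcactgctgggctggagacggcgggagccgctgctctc
TIPIN, chr15:66356636-66356935, minus strand: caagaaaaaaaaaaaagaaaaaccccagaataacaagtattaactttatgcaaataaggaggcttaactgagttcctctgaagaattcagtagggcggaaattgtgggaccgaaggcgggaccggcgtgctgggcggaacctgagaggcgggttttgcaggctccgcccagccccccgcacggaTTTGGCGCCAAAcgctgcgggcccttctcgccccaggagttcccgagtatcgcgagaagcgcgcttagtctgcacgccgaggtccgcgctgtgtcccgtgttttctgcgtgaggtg
TIMELESS, chr12:56449377-56449676, minus strand: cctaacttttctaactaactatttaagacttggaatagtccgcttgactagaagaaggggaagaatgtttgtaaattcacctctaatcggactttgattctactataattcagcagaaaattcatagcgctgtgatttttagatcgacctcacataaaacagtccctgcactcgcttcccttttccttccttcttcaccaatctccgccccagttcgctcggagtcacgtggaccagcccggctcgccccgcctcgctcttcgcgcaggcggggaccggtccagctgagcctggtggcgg

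CLSPN had 1 match, starting 5 bases before its start, and this TIPIN window had 2, starting 66 and 62 bases before it. Of the 2 windows listed for TIPIN, the one shown was chosen because it held matches, and the other had none. The TIMELESS window had none of these letters. Windows were listed for 28 of the 34 members, 42 in all, and 4 of these 42 windows held a match, as did 1164 of all 35116 windows (3.31%). The 4 windows belong to 4 genes, of which the remaining 2 were TOPBP1 and XRCC6, whose log2 fold changes of 0.05 and 0.04 were not called. A match describes the sequence only and does not show that a factor binds there.

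Because partners within a complex moved apart, as did the separate kinases CHEK1 and CHEK2, the ratio of their FPKM was taken in each library. No scale factor of a library can alter such a ratio. These pairs were chosen after their values were seen, so the ratios carry no test. For HUS1 and RAD1 over RAD9A and for CHEK1 over CHEK2, the groups of each gene already lay apart, in opposite directions. Separation of those ratios follows from these values and is no further evidence. For TIPIN over TIMELESS it does not follow, since the groups of TIPIN overlapped. TIPIN over TIMELESS was 0.211, 0.175 and 0.221 in NC and 0.255, 0.304 and 0.29 in sh-RAD51C. HUS1 over RAD9A was 0.56, 0.429 and 0.47 in NC and 0.851, 0.678 and 0.782 in sh-RAD51C. Both ratios were higher in all 3 knockdown libraries than in any NC library.

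CHEK1 over CHEK2 was 2.29 ± 0.0846 in NC and 3.24 ± 0.206 in sh-RAD51C (SD, n = 3), also without overlap. RAD1 over RAD9A went from 1.06 ± 0.07 to 1.45 ± 0.124. The ratio of the Ku subunits, XRCC5 over XRCC6, was much steadier at 0.685 ± 0.00978 and 0.65 ± 0.0211, although here too the groups did not overlap.

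**Figure D4:**
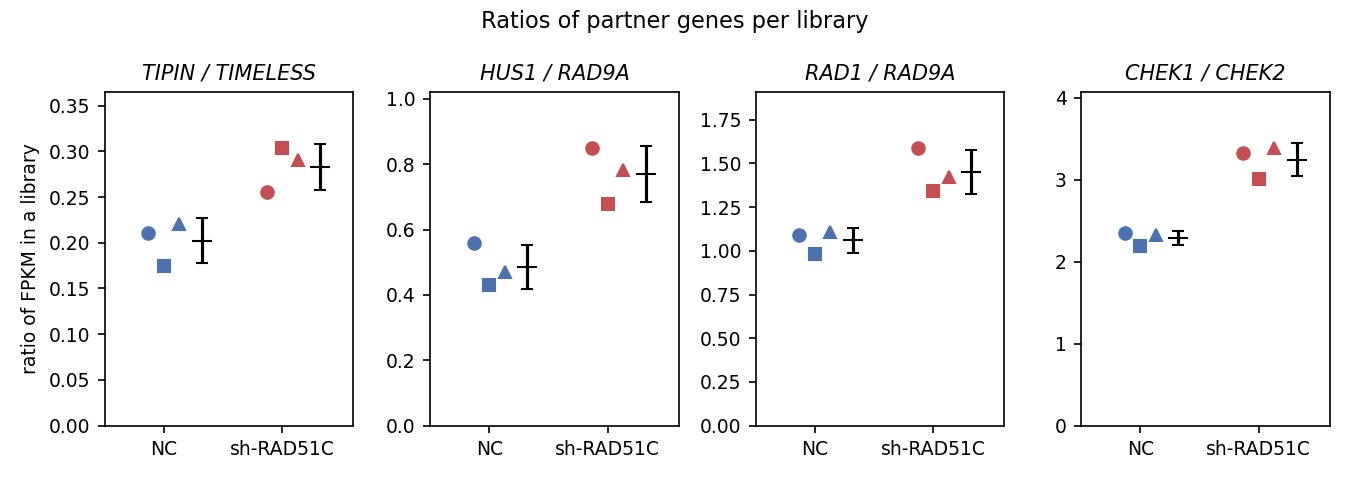
Ratio of FPKM between paired genes in each library, on axes from 0, with circles, squares and triangles for replicates 1, 2 and 3, and the mean with its SD in black. In each of the 4 pairs every sh-RAD51C library is above every NC library, as for CHEK1 over CHEK2 at 3.24 against 2.29 on average. For all but TIPIN over TIMELESS this follows from the separate groups of each gene.

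The library sh-RAD51C 1 stood apart in the longest members. PRKDC, with an inferred length of 13459 bases, was at 88.7, 88.9 and 87.4 FPKM in NC and 73.3, 93.6 and 92 FPKM in sh-RAD51C. RIF1 (15042 bases) was at 10.4 FPKM in sh-RAD51C 1 and 12.6 and 13.1 FPKM in the other knockdown libraries, and ATM (15408 bases) at 2.36 against 3.07 and 3.16 FPKM. In all 3 genes this library was the lowest of the 6. Of the 15 members longer than the median of 5135 bases, 13 were below their group mean in sh-RAD51C 1, as were 9 of the 15 shorter ones.

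The same held over all tested genes. In sh-RAD51C 1 the median deviation from the group mean was -0.061 (log2) among the 2788 longest genes and 0.051 among the 2760 shortest. In sh-RAD51C 3 these were 0.045 and -0.031, and no NC library went beyond 0.014 in either set. Without sh-RAD51C replicate 1 the log2 fold changes of PRKDC, RIF1 and ATM were 0.07, 0.09 and 0.01, none of them called (limma adjusted p = 0.075, 0.1 and 0.9).

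**Figure D5:**
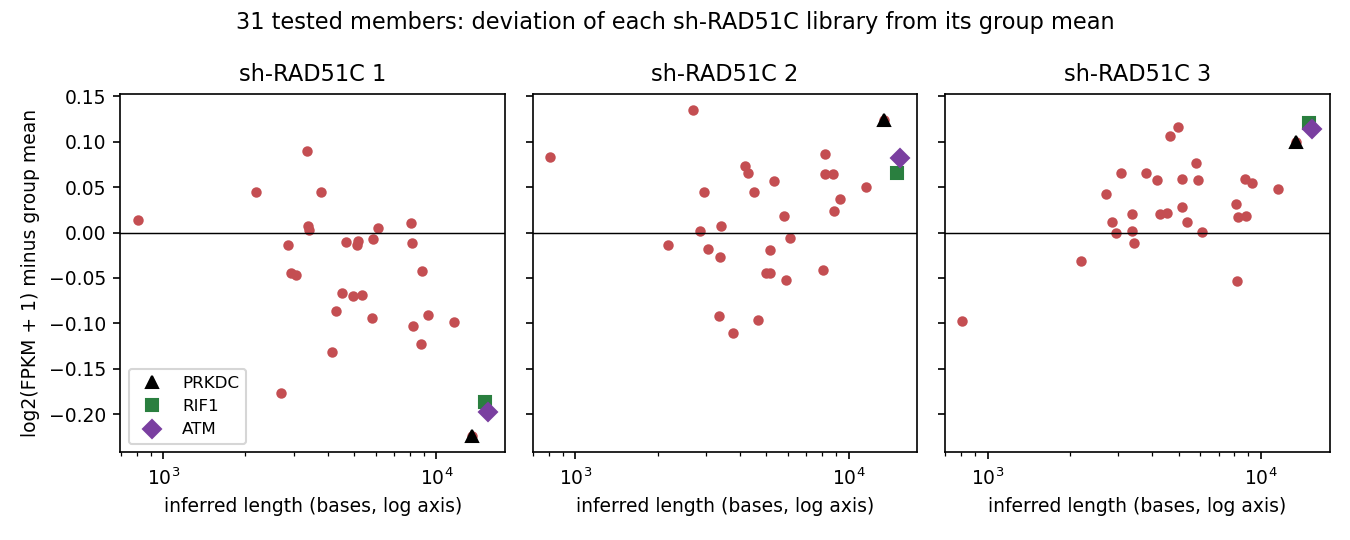
Deviation of each sh-RAD51C library from the mean of its group (log2(FPKM + 1)) for the 31 tested members, against inferred gene length on a log axis, with PRKDC, RIF1 and ATM marked. In sh-RAD51C 1 the 5 longest members all lie below 0, with a median of -0.186.

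Other genes of these pathways were also described, without a test against the members. Of 68 tested genes outside the 34, 14 were higher and 11 lower, or 36.8% called against the 49.4% of all genes. The groups did not overlap in 54.4% of them, against 58.4% of all genes, and their changes ran from -0.93 to 0.42 (log2). Among 18 other end joining genes, 4 rose and 5 fell (50% called), the median change being 0.09 (log2). XRCC1, the scaffold of single-strand break repair, fell from 22.4 ± 0.845 to 18 ± 0.617 FPKM (a log2 difference of -0.31, limma adjusted p = 0.000176). RBBP8, which starts end resection, fell by 0.3 on the log2 scale, while TDP2, which removes trapped topoisomerase from ends, rose by 0.21 and NBN of the MRE11 complex by 0.19.

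Around TP53BP1 and shieldin, 3 of 18 genes were higher and 3 lower (33.3% called, against 49.4% of all genes). TRIP13, the ATPase that takes apart complexes of the shieldin subunit MAD2L2, rose from 20.2 ± 0.797 to 27.3 ± 0.78 FPKM (SD with n = 3, a log2 difference of 0.42, limma adjusted p = 1.43e-05). UBE2N, the ubiquitin-conjugating enzyme used by RNF8, rose by 0.27. USP28 and PWWP3A, both partners of TP53BP1, fell by 0.33 and 0.24.

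Among 32 other checkpoint genes, 7 were higher and 3 lower (31.2% called, against 49.4% of all genes). The CDC25 phosphatases, which oppose WEE1 and are restrained by CHEK1 and CHEK2, did not move as a family. CDC25B fell from 118 ± 1.11 to 61.2 ± 0.806 FPKM (a log2 difference of -0.93, limma adjusted p = 5.94e-09) and CDC25C from 7.28 ± 0.427 to 5.08 ± 0.104 FPKM. CDC25A rose from 7.57 ± 0.577 to 9.96 ± 0.699 FPKM (a log2 difference of 0.36, limma adjusted p = 0.000917). TELO2, needed for the stability of ATM, ATR and PRKDC proteins, rose by 0.29.

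Some members, CHEK1 and CLSPN among them, are transcribed in a cell cycle-dependent way, so markers of cell cycle phases were examined. Of 12 markers of G2 and mitosis, 7 fell and 1 rose (66.7% called, against 49.4% of all genes), the median change being -0.16 (log2), with a summed level of 867.1 to 893.1 FPKM in NC and 773.8 to 796.2 FPKM in sh-RAD51C. TOP2A fell from 228 ± 3.38 to 181 ± 8.71 FPKM, and CDC20 rose from 80.2 to 88.2 FPKM. The 4 not called included CCNB1 (105 to 103 FPKM) and CDK1 (33.3 to 32.7 FPKM). Of 16 S phase markers, 4 were higher and 1 lower (31.2% called, against 49.4% of all genes), with a median of 0.03 and a summed level of 999.8 to 1021 FPKM in NC and 1022 to 1052 FPKM in sh-RAD51C. CCNE1 rose from 20.2 ± 0.232 to 28.7 ± 1.72 FPKM and CDC6 from 23.9 ± 0.666 to 31.3 ± 0.463 FPKM, while MCM6 fell from 36.2 ± 0.775 to 33 ± 0.492 FPKM. The part of cell cycle phase in the changes of CHEK1, CLSPN, TIPIN, TIMELESS and the other members was not tested.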

How the data were processed

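RNA-seq expression was compared between 3 NC and 3 sh-RAD51C libraries of 5637 cells. The values are FPKM, computed by the authors and deposited as 1 table. The submitters' processing notes list hg38, R 3.2.0 and DESeq2 and do not say what each did. Aligner, read counter, strand setting and annotation: not given in the sources used here. Each of the 6 value columns matched 1 library title.

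The 11152 of 23024 genes averaging 1 FPKM or more were transformed as log2(FPKM + 1). The groups were compared in limma 3.58.1 under R 4.3.3, using its mean-variance trend and no covariate. Benjamini-Hochberg adjustment ran over all 11152 genes, with calls made below 0.05. The fit was checked on simulated data in which few genes changed and no library had a length trend, unlike the data here. Fold changes on this scale understate the change of low genes, so folds of mean FPKM are given too.

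Whole reads were inferred from the FPKM steps and library totals from RefSeq gene lengths. All 6 values were whole within 0.001 reads for 99.7% of the tested genes, which describe depth and entered limma's voom as an alternative. Positions and exon overlaps are from GENCODE release 29 (GRCh38) and promoter sequences from RefSeq (GRCh38.p14). Python 3.11.15, numpy 2.4.6, pandas 2.3.3, scipy 1.17.1 and matplotlib 3.10.9 were used for the rest.

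The members, the gene lists, the test and 17 of 18 alternatives were chosen with earlier results of these data known. The other, a correction that takes out length and GC trends per library, was added after seeing the data. Members that were called or left untested are given with all 6 values, other pathway genes by the smallest p (at most 4 of each list). The replicate numbers were not taken as pairs, because the labels state no shared origin for them. Deviations from the group mean correlated at 0.19, 0.026 and 0.091 between libraries numbered 1, 2 and 3. Between libraries of unlike number the correlations ran from -0.167 to 0.11. These values do not settle whether the numbers mark pairs, so a block on them was run as an alternative. Within groups, counts differed beyond sampling noise (3.7 to 14.29 chi-square units for each degree of freedom), so no libraries were merged as 1 library deposited more than once. This does not show that they are separate cultures.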

Additional observations from a re-analysis of the deposited data

How the results depend on the processing

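The 11 calls rest on changes of at most 0.31 (log2) and on 3 libraries per group. Without a filter on low values 4 members were higher and 2 lower, at a mean of at least 5 FPKM 4 were higher, and at an adjusted p under 0.01 the counts were 3 and 2. The stricter filter tested fewer members, and the counts at 0.01 came from the same fit with only the threshold changed. The cause of the counts without a filter was not tested. Other pathway genes called higher numbered 23 with median-of-ratios scaling, 23 without length and GC trends and 8 at 0.01. Leaving out 1 library at a time gave 4 to 9 members higher and 2 to 5 lower, 9 to 13 other pathway genes higher and 9 to 12 lower, 4522 to 5464 genes called in all, and -1.88 to -1.78 for RAD51C. With the replicate block 7 members were higher and 4 lower, as in the unblocked comparison. No call among the members changed under the block, and 5569 genes were called in all against 5511. The numbers 1 to 3 share no stated origin.

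Log2 fold changes changed sign only in uncalled members: RNF168 was 0.01 with median-of-ratios scaling, 0.02 with quantile normalization, 0.04 without NC replicate 3 and 0.01 with sh-RAD51C replicate 1 left out. Over the 6 omissions PRKDC ran from -0.1 to 0.07, ATM from -0.15 to 0.01, POLL from -0.03 to 0.08, LIG4 from -0.02 to 0.08, RIF1 from -0.06 to 0.09 and RNF168 from -0.06 to 0.04. PRKDC was 0.07 without sh-RAD51C replicate 1 and 0.01 without length and GC trends, and ATM 0.01 without sh-RAD51C replicate 1. POLL was -0.02, -0.01 and -0.03 with NC replicates 1 and 3 and sh-RAD51C replicate 1 omitted in turn, and LIG4 -0.01 and -0.02 on omitting NC replicate 2 and sh-RAD51C replicate 3. RIF1 was -6.1e-05, -0.01, -0.03 and -0.06 on omitting NC replicates 1 and 3 and sh-RAD51C replicates 2 and 3. SHLD3, SHLD1 and ATRIP averaged under 1 FPKM and were not tested.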

Other observations

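ATRIP and the readthrough transcript ATRIP-TREX1, listed as a gene of its own, were both near 0. The readthrough held 0.0193, 0.0248 and 0.0743 FPKM in NC 1, 2 and 3 and 0.0367, 0.0627 and 0.0306 FPKM in sh-RAD51C 1, 2 and 3, which is 3 to 12 inferred reads per library. Its partner kinase ATR held 1935 to 2299 inferred reads per library.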
